A study of Mus musculus with 10 samples.

Results

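The suppressor of cytokine signalling (SOCS) family was followed in the livers of napabucasin-treated and vehicle-treated mice through its 8 genes, Socs1 to Socs7 and Cish, which were taken by gene name from a count table of 54532 genes. Whole liver was sequenced as polyadenylated RNA from 10 mice. Napabucasin (BBI608), a quinone compound known for blocking STAT3 activity, was given at 20 mg per kg to the first group of 5 as a daily gavage over 7 days, and the second group of 5 received only the vehicle, 1% sodium carboxymethyl cellulose (NaCMC), on the same schedule. The comparison asks which liver genes and pathways the drug affects. Strain, sex and age are unstated in the labels, and the libraries are labelled as biological replicates.

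SOCS proteins are the negative feedback arm of cytokine signalling: a cytokine receptor activates Janus kinases (JAKs), these activate STAT transcription factors, and the STATs switch on SOCS genes whose products then bind the receptor or the kinase and stop the signal. An SH2 domain gives each protein its targets, and a C-terminal SOCS box recruits an elongin and cullin 5 ubiquitin ligase. In liver, Socs3 is known as the brake on interleukin-6 signalling through gp130, Socs1 as the brake on interferon gamma, and Cish and Socs2 as growth hormone targets of STAT5, while Socs4 to Socs7 are better known for acting on growth factor and insulin receptor pathways.

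The regulatory stretches of 3 of the most readily induced members are shown because STAT and interferon regulatory factors are the textbook route to their induction. RefSeq promoter windows on GRCm38.p6, from 250 bases before to 50 bases after a start site, were present for 4 of the 8 members, Socs1, Socs3, Socs4 and Cish. Capitals mark matches, on either strand, to the STAT motif TTCNNNGAA, which is its own reverse complement, and to an interferon regulatory factor (IRF) motif, a pair of GAAA letters with any 2 bases between them. The stretches are printed 5′ to 3′ on the gene's strand, from the minus strand of chr11:117969367-117969566 for Socs3 and of chr16:10785537-10785736 for Socs1, and from the plus strand of chr9:107296654-107296683 for Cish.
Socs3: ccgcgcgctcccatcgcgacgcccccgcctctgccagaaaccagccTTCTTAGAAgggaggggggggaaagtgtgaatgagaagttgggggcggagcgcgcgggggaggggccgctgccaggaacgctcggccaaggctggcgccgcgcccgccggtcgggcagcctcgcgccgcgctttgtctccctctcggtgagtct
Socs1: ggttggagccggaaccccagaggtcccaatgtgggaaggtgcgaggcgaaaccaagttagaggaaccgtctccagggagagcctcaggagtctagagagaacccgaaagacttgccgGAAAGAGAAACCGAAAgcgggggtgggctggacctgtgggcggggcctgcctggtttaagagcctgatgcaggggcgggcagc
Cish: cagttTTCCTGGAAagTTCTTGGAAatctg
The Socs3 window held 1 STAT match, which began 154 bases before the start site, inside the annotated gene but in no exon. The Cish window held 2 STAT matches, at bases 1 to 9 and 12 to 20 after the start site, in an annotated 5′ untranslated exon. The Socs1 window held 2 overlapping IRF matches, 83 to 68 bases before the start site and outside the annotated gene, and the Socs4 window held neither motif. Of 32851 promoter windows of the same length, 8.30% held a STAT match and 3.44% an IRF match.

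Library totals were 15364342 to 17369118 counts in napabucasin and 14124484 to 17759967 counts in vehicle libraries. All 8 hepatocyte marker genes were measured, with summed levels of 71351 to 129109 CPM (counts scaled to a common library size by TMM factors) in napabucasin and 42351 to 155671 CPM in vehicle libraries. The lowest sum was in vehicle replicate 2. Adipose markers summed to at most 0.0684 CPM in napabucasin and 0.0718 CPM in vehicle libraries, and muscle markers to at most 1.05 CPM in napabucasin and 4.67 CPM in vehicle libraries. Genes annotated as rRNA took 0.426% to 1.09% of counts in napabucasin and 0.195% to 0.912% in vehicle libraries, with the 3 highest shares in napabucasin replicates 1 and 2 and vehicle replicate 2. In bulk liver, fewer cells of a type and less RNA per cell cannot be told apart.

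No SOCS family gene passed the adjusted threshold for a difference between napabucasin and vehicle livers. The log2 fold change was smaller than the within-group SD of log2 CPM in 7 of the 8 genes, Socs7 being the exception. All 8 genes passed the filter on low counts. By edgeR's quasi-likelihood test, 0 of 8 had an adjusted p under 0.05, against 0% of the 14244 genes tested, and 0 of 8 an unadjusted p under 0.05, against 15.2% of all genes. DESeq2 and limma-voom also called 0 of the 8. Over all genes DESeq2 called 242, or 1.77% of the 13682 genes to which it gave an adjusted p (1.27% higher and 0.497% lower), and limma-voom called 132. Every member's napabucasin and vehicle CPM values overlapped, so that 0 of 8 had separate groups, against 2.15% of all genes (1.21% higher and 0.934% lower). The members' log2 fold changes, napabucasin over vehicle, ranged from -0.54 to 0.33. Their median was -0.03, beside 0.00 over all tested genes, and 3 members lay above 0 and 5 below, against 50.1% and 49.9% of all genes, although with library size as the only scaling 6 members lay above 0. The exact two-sided permutation p over the 10 libraries ran from 0.103 for Socs7 to 0.968 for Socs5, where 5 against 5 libraries can reach 0.00794. These permutations, and those of the correlations over libraries, treat the libraries as exchangeable and take no account of the replicate numbers.

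**Figure D1:**
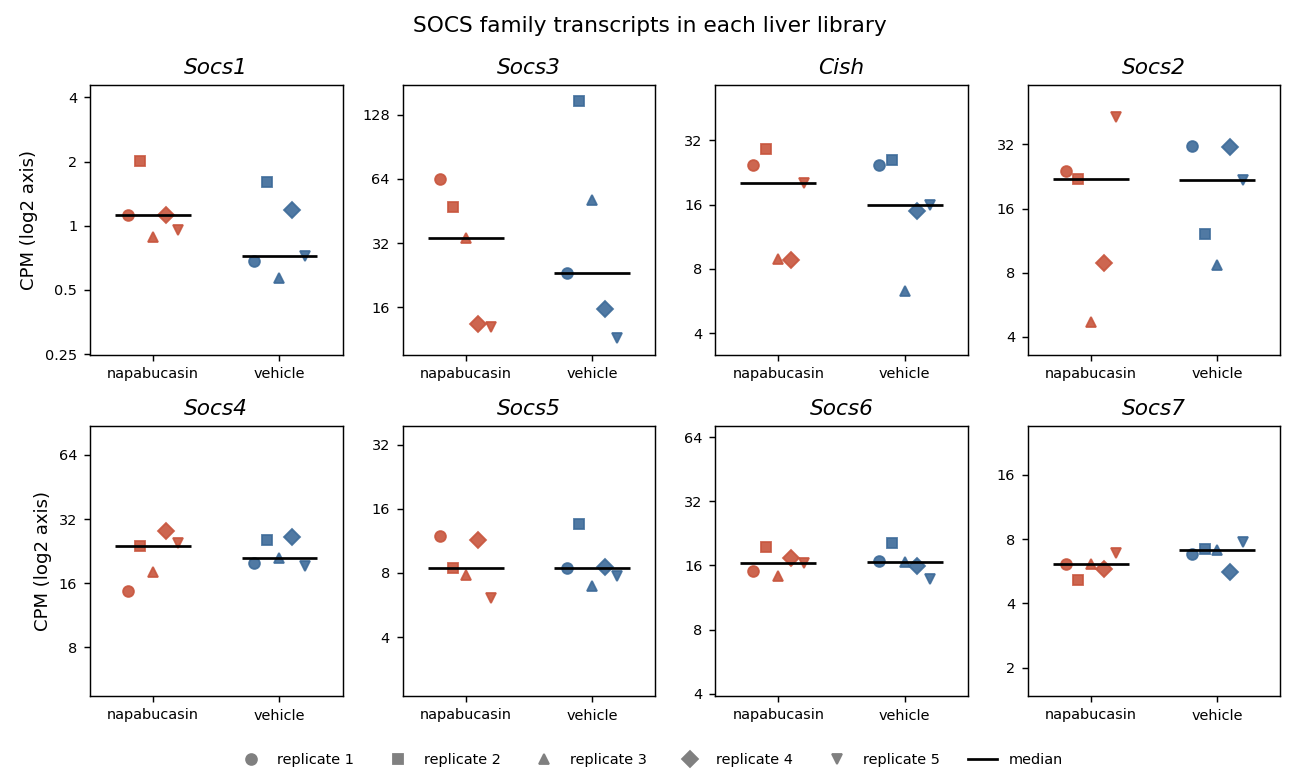
CPM of each SOCS family gene on a log2 axis, 1 panel per gene with the same span of the axis, for 5 napabucasin libraries (left, red) and 5 vehicle libraries (right, blue); marker shapes give the replicate number and black bars the group median. The groups overlap in every panel, and Socs3, Socs2 and Cish spread far more within a group than Socs4, Socs6 and Socs7.

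Socs3 (chromosome 11, 117966079 to 117970047, minus strand, GRCm38) encodes the inhibitor of gp130 and JAK signalling. It had the highest mean CPM of the members and the widest scatter. Other members stood above it in some libraries, such as Socs2 at 42.8 CPM against 13.0 CPM in napabucasin replicate 5. Socs3 measured 63.8, 47.5, 33.7, 13.4 and 13.0 CPM in napabucasin replicates 1 to 5. In vehicle replicates 1 to 5 it measured 23.3, 148, 50.8, 15.7 and 11.5 CPM. Vehicle replicate 2 alone stood above every napabucasin library, while replicates 4 and 5 were low in both groups. The averages were 34.3 ± 22.0 CPM in napabucasin and 49.8 ± 56.8 CPM in vehicle livers (SD, n = 5 each), and the median was higher in napabucasin livers, 33.7 against 23.3 CPM. Socs3 had an estimated log2 fold change, napabucasin over vehicle, of -0.54 with an SE of 0.67 and a 95% interval of -1.99 to 0.90 (edgeR adjusted p = 0.693). Without vehicle replicate 2 it was 0.44 (interval -0.65 to 1.54, edgeR adjusted p = 0.640). It was 0.16 by limma-voom with all 10 libraries, and -0.31 by edgeR without the 3 libraries of highest rRNA-gene share, vehicle replicate 2 among them, so its sign depended on the libraries and the weighting used. Vehicle replicate 2 also had the lowest albumin (Alb) level, 28363 CPM against 82769 to 124696 CPM in the other vehicle libraries, and the highest rRNA-gene share of its group; the part of the albumin level in the Socs3 value was not tested.

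Socs1, the inhibitor of interferon gamma signalling (chromosome 16, 10782240 to 10785536, minus strand), had few reads. Its reads numbered 18, 37, 16, 21 and 14 in napabucasin replicates 1 to 5, and 8, 35, 8, 21 and 10 in vehicle replicates 1 to 5. Replicate 2 was the highest library in both groups, and the lowest 3 libraries were vehicle libraries. A count of 8 has an exact Poisson 95% interval of 3.45 to 15.8 and a count of 37 one of 26.1 to 51.0, counting error only. The levels averaged 1.22 ± 0.45 CPM in napabucasin and 0.952 ± 0.434 CPM in vehicle livers (SD, n = 5 each), and the estimated difference on the log2 scale was 0.33, with an SE of 0.40 and a 95% interval of -0.53 to 1.18 (edgeR adjusted p = 0.685). It was 0.07 without napabucasin replicate 2 and 0.62 without vehicle replicate 2.

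Cish and Socs2, the pair known from growth hormone signalling, had similar group means and scattered widely within each. Cish (chromosome 9, 107296026 to 107302784, plus strand), which encodes an SH2 protein that binds activated cytokine receptors, measured 24.5, 29.2, 8.90, 8.81 and 20.2 CPM in napabucasin replicates 1 to 5. In vehicle replicates 1 to 5 it measured 24.5, 25.8, 6.32, 14.9 and 15.9 CPM. In both groups Cish was high in replicates 1 and 2 and low in replicate 3. Replicate 4 was the lowest napabucasin library, at 8.81 CPM, but had 14.9 CPM in vehicle. For Cish the log2 fold change was 0.07, with an SE of 0.39 and a 95% interval of -0.78 to 0.92 (edgeR adjusted p = 0.941), and 0.05 with a narrower interval of -0.39 to 0.49 when the replicate number was fitted as a block.

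Socs2 (chromosome 10, 95385362 to 95417180, minus strand), the feedback inhibitor of the growth hormone receptor, measured 24.1, 22.1, 4.70, 8.92 and 42.8 CPM in napabucasin replicates 1 to 5. The vehicle replicates 1 to 5 had 31.3, 12.2, 8.74, 31.1 and 21.8 CPM. Replicate 3 was the lowest library of each group, and both extremes of the 10 libraries, replicates 3 and 5, were napabucasin livers. For Socs2 the log2 fold change was -0.04, with an SE of 0.50 and a 95% interval of -1.11 to 1.04 (edgeR adjusted p = 0.976), with values from -0.49 without napabucasin replicate 5 to 0.22 without napabucasin replicate 3, and -0.84 by limma-voom with sample quality weights (adjusted p = 0.373). The interval is wide enough to hold a 2-fold difference in either direction.

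The remaining 4 members had smaller spreads within a group than Socs3, Socs2 and Cish. Socs4 and Socs5, known for restraining the epidermal growth factor receptor, lie on chromosome 14 (47276931 to 47296102) and chromosome 17 (87107679 to 87137583). Socs4 ranged from 14.7 to 28.1 CPM in napabucasin and from 19.2 to 26.4 CPM in vehicle livers, and its log2 fold change was -0.03 with a 95% interval of -0.45 to 0.38 (edgeR adjusted p = 0.940). Socs5 ranged from 6.09 to 11.9 CPM in napabucasin and from 6.96 to 13.6 CPM in vehicle livers, and its log2 fold change was 0.01 with a 95% interval of -0.52 to 0.53 (edgeR adjusted p = 0.990). Of the 5 napabucasin libraries, 2 lay inside the vehicle range for Socs4 and 4 for Socs5. Socs6 and Socs7, linked to insulin receptor and related kinase signalling, lie on chromosome 18 (88665224 to 88927481) and chromosome 11 (97362551 to 97398542). Socs6 ranged from 14.3 to 19.6 CPM in napabucasin and from 13.9 to 20.3 CPM in vehicle livers, and its log2 fold change was -0.02 with the narrowest 95% interval of the 8 genes, -0.37 to 0.34 (edgeR adjusted p = 0.965). Socs7 had 6.01 ± 0.64 CPM in napabucasin and 6.91 ± 0.79 CPM in vehicle livers (SD, n = 5 each), and its log2 fold change was -0.20 with a 95% interval of -0.60 to 0.20 (edgeR adjusted p = 0.598). Socs7 had the smallest adjusted p of the family, and its sign was negative in all 24 alternative fits. These fits reuse the same libraries, and Socs1 likewise kept its positive sign in all 22 of its alternatives.

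**Figure D2:**
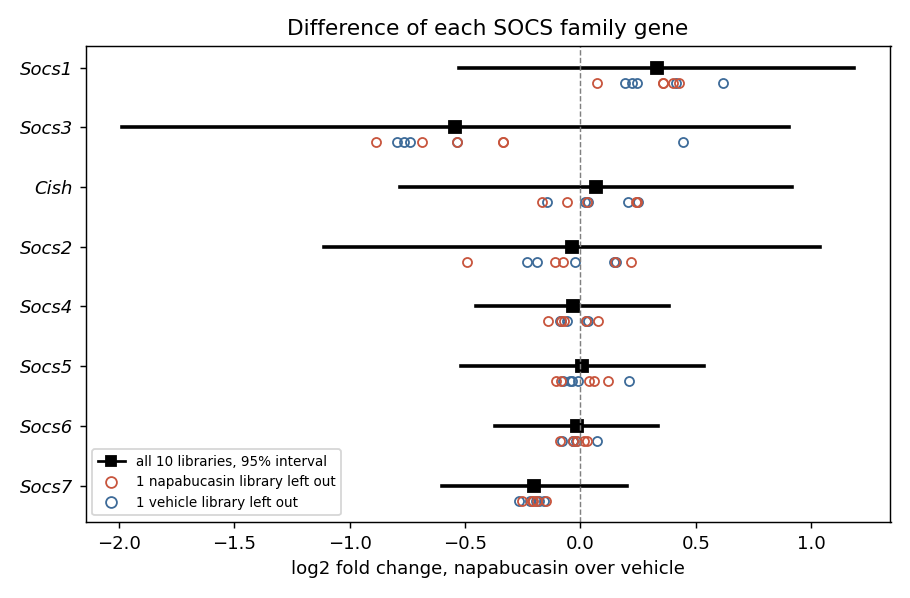
Log2 fold change of each SOCS family gene, napabucasin over vehicle, from edgeR: squares and black bars give the value and 95% interval with all 10 libraries, open circles the value with 1 napabucasin (red) or 1 vehicle (blue) library left out. Every interval crosses 0, and the only circle right of 0 for Socs3 is the fit without vehicle replicate 2, at 0.44.

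Per unit of transcript length, Socs3 had the highest mean level of the family and Socs1 the lowest. Fragments scaled by the authors to gene length and library size (FPKM) averaged 11.7 ± 7.43 for Socs3 in napabucasin and 17.0 ± 19.2 in vehicle livers (SD, n = 5 each). Socs3 exceeded Socs4, the next gene by mean, in all 10 libraries. In napabucasin replicate 5, however, Socs3 had 4.43 FPKM and Socs2 4.42 FPKM. Over the 10 libraries, mean FPKM was 14.3 for Socs3, 3.19 for Socs4, 2.75 for Cish, 2.15 for Socs2, 2.04 for Socs5, 2.00 for Socs6, 0.880 for Socs7 and 0.368 for Socs1. Neighbours from Socs4 down to Socs6 could not be ordered: Socs4 exceeded Cish in 6 of 10 libraries, Cish exceeded Socs2 in 8, Socs2 exceeded Socs5 in 5 and Socs5 exceeded Socs6 in 5. Socs6 exceeded Socs7, and Socs7 exceeded Socs1, in 10 of 10 libraries with no overlap. Socs3 supplied 22.1% to 60.8% of the family's summed FPKM in napabucasin and 24.4% to 76.0% in vehicle livers. That summed FPKM was 25.01 ± 8.19 in napabucasin and 30.4 ± 20.2 in vehicle livers (SD, n = 5 each).

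The family split by how much its genes varied between livers of the same group. The within-group SD of log2 CPM was 1.28 for Socs3, 1.06 for Socs2 and 0.81 for Cish, at the 99.03, 97.2 and 90.5 percentiles of the 14244 genes, whose median was 0.41. Among genes within 2-fold of their own mean CPM, these 3 stood at the 99.5, 99.03 and 96.3 percentiles. Socs7 and Socs6 lay at the other end, with SDs of 0.16 and 0.19, at the 2.86 and 5.66 percentiles of all genes. Socs4 and Socs5 had SDs of 0.30 and 0.38. Socs1, at 0.49, lay at the 62.9 percentile of all genes but at the 18.7 percentile among genes of like abundance. Highest and lowest library differed 12.9-fold in Socs3, 9.10-fold in Socs2 and 4.61-fold in Cish, against 1.47-fold in Socs6. The spread of Socs3 was present in both groups, with an SD of log2 CPM of 1.05 in napabucasin and 1.47 in vehicle livers. The spread of Socs2 was 1.25 in napabucasin and 0.82 in vehicle livers, and that of Cish 0.81 in each group. These percentiles are descriptions of the 10 libraries and carry no test.

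**Figure D3:**
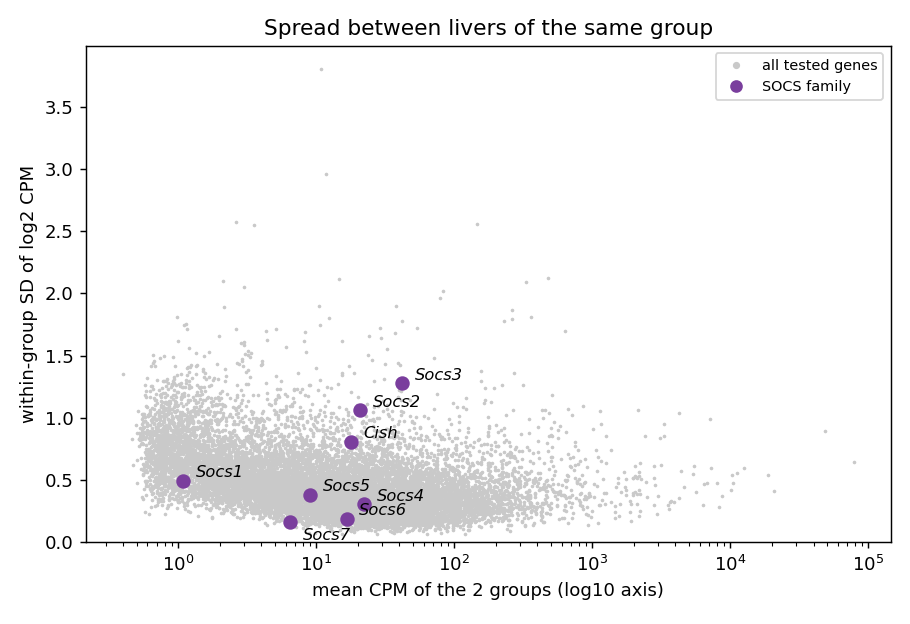
Within-group SD of log2 CPM (vertical axis) against the mean CPM of the napabucasin and vehicle groups (horizontal log10 axis) for the 14244 tested genes (grey) and the 8 SOCS family genes (purple). Socs3, Socs2 and Cish lie at the upper edge of the cloud at their abundance, Socs6 and Socs7 at its lower edge.

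Members did not share a common pattern across livers that passed a test. Of 28 pairs, 0 had an adjusted p under 0.05 for Pearson's r of log2 CPM over the 10 libraries, 2 had an unadjusted p under it, and 0 passed by Spearman's rho or within groups. Socs2 and Cish, both low in replicate 3 of each group, had the highest r, 0.69 (permutation p = 0.0298, adjusted p = 0.440), with a rho of 0.49 (permutation p = 0.156, adjusted p = 0.677). After group means were removed the r of Socs2 and Cish was 0.70 (permutation p = 0.0407, adjusted p = 0.567), and it was 0.41 without napabucasin replicate 3 and vehicle replicate 3, the 2 libraries farthest from the median of Socs2. Socs1 and Socs6 had an r of 0.64 (permutation p = 0.0441, adjusted p = 0.440) and a rho of 0.42 (permutation p = 0.231, adjusted p = 0.677). Without the 2 libraries farthest from the median of Socs1 their r was 0.66. Socs3 and Socs1, both known to answer inflammatory cytokines, had an r of 0.385 (permutation p = 0.274, adjusted p = 0.672) and a rho of 0.31 (permutation p = 0.388, adjusted p = 0.715). Their r was 0.61 without napabucasin replicate 2 and vehicle replicate 3, the 2 libraries farthest from the median of Socs1.

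**Figure D4:**
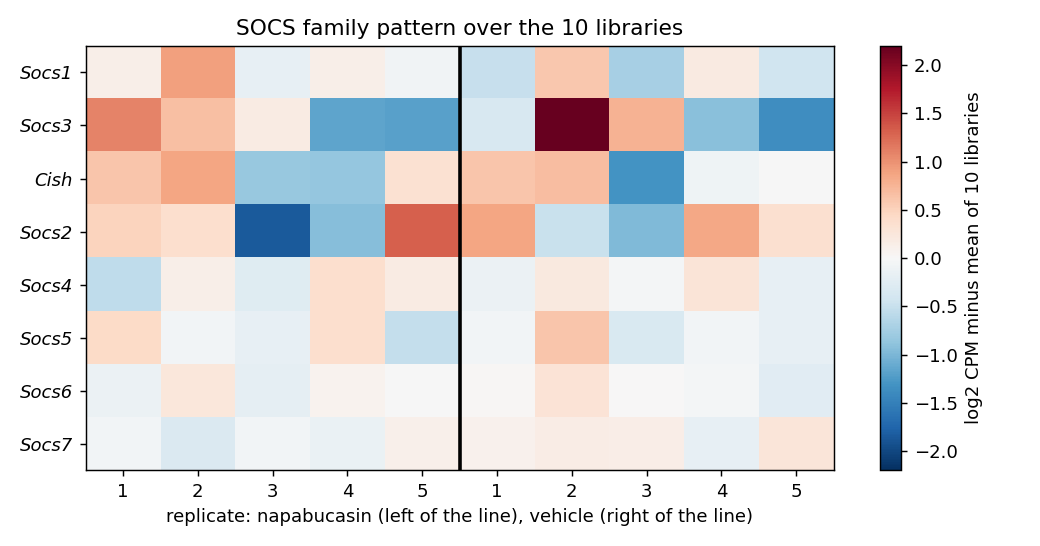
Log2 CPM of each SOCS family gene minus its mean over the 10 libraries (colour, red above and blue below), with napabucasin replicates 1 to 5 left of the line and vehicle replicates 1 to 5 right of it. Socs3 is darkest red in vehicle replicate 2, Socs2 and Cish are blue in replicate 3 of both groups, and the rows of Socs4, Socs6 and Socs7 stay pale.

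The genes whose levels followed each member most closely were ranked over the 10 libraries among 13341 genes whose mean CPM was 1 or more, by Pearson's r of log2 CPM and as a description only. Socs3 was followed most closely by Abcb9 (r = 0.94), Gm7694 (r = 0.92) and the Janus kinase gene Jak3 (r = 0.92). Jak3 measured 29.7, 25.4, 27.0, 18.4 and 17.8 CPM in napabucasin replicates 1 to 5, and 18.04, 38.7, 29.2, 17.1 and 10.8 CPM in vehicle replicates 1 to 5, so that vehicle replicate 2 was its highest library too. Socs2 was closest to 4833422C13Rik (0.91), Etnppl (0.90) and Slc17a2 (0.88), and Cish to Tubgcp6 (0.93), Kcnab3 (0.92) and Zfp606 (0.92). Socs1 was closest to Acap2 (0.97), Srsf10 (0.96) and 1110038F14Rik (0.92). The nearest genes were Golph3, Nxt1 and Inip (0.90 to 0.92) for Socs4, Tent4a, Zfp282 and Zbtb1 (0.90 to 0.95) for Socs5, Rpl13a, Tifa and Rpl7a-ps11 (0.85 to 0.89) for Socs6, and Nrp2, Gm44950 and Peli2 (0.89 to 0.91) for Socs7.

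The ligase through which SOCS proteins mark their targets was measured in full, and 0 of its 6 genes had an unadjusted p under 0.05. The scaffold Cul5 averaged 16.7 ± 2.14 CPM in napabucasin and 19.3 ± 3.18 CPM in vehicle livers (SD, n = 5 each), which is -0.21 on the log2 scale (95% interval -0.58 to 0.16), and its RING partner Rnf7 had -0.29. The log2 fold changes of Arih2 and Ube2f, which act with cullin 5 in ubiquitin and NEDD8 transfer, were -0.23 and -0.20. Those of the elongin genes Elob and Eloc were -0.10 and 0.03. Of 14 other genes with a SOCS box, an unadjusted p under 0.05 was found for 0 higher and 2 lower, where 9.34% of all genes were higher and 5.83% lower. Those were Asb8, at 12.3 ± 2.45 CPM in napabucasin and 18.6 ± 3.18 CPM in vehicle livers (SD, n = 5 each, edgeR adjusted p = 0.238), and Wsb2, with a log2 fold change of -0.44 (edgeR adjusted p = 0.288). Wsb1 and Asb13 had 0.48 and 0.24.

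Upstream of the family, cytokine transcripts were scarce. Of 22 ligand genes, 9 passed the filter and 5 had no read in any library. Il6, whose product induces Socs3, had at most 5 reads in a library of either group, and Ifng, whose product induces Socs1, had 0 to 11 reads in napabucasin and 0 to 7 reads in vehicle libraries. Interleukin 15 (Il15) lay higher at an unadjusted p under 0.05, with 7.75 ± 2.89 CPM in napabucasin and 4.88 ± 1.01 CPM in vehicle livers (SD, n = 5 each, edgeR adjusted p = 0.288). The inflammatory cytokine Il1b had a log2 fold change of 0.93, the gp130 ligand Ctf1 one of -0.48 and Il4 one of 0.42, all with edgeR adjusted p of at least 0.402.

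Receptors and signal transducers had positive medians and no gene past edgeR's adjusted threshold, which 0 of all 14244 tested genes passed. Of 24 receptor genes, 8 higher and 0 lower had an edgeR unadjusted p under 0.05, against 9.34% and 5.83% of all genes. After adjustment 0 passed, and the median log2 fold change was 0.30. All gene lists were chosen with earlier results of these data known, so a list's share beside that of all genes is descriptive only. The stem cell factor receptor Kit measured 6.91 ± 2.79 CPM in napabucasin and 2.62 ± 1.36 CPM in vehicle livers (SD, n = 5 each), which is 1.39 on the log2 scale with an SE of 0.38 (edgeR adjusted p = 0.221). The lymphocyte receptors Il2rb and Il7r had log2 fold changes of 0.90 and 1.13, and Il10rb 0.87. The growth hormone receptor Ghr, which drives Cish and Socs2, had -0.07 (95% interval -0.62 to 0.48). Of 11 JAK and STAT genes, 5 had such a p and lay higher and 0 lower, and the median was 0.35. Tyk2, Stat4 and Stat6 had log2 fold changes of 0.77, 0.98 and 0.46, with edgeR adjusted p of 0.256 to 0.278. Tyk2 reached 85.8 CPM in napabucasin replicate 1. In napabucasin replicates 3 and 4 it had 29.4 and 29.6 CPM, below the 30.0 CPM of vehicle replicate 2. Stat4 averaged only 1.34 CPM in napabucasin and 0.664 CPM in vehicle livers. Stat5b, the growth hormone STAT of liver, had 0.34 (95% interval -0.14 to 0.81). Among 12 other JAK-STAT brakes, 2 higher and 0 lower had such a p, a share near that of all genes, the adaptor Sh2b3 (log2 fold change 0.53) and the phosphatase Ptpn6 (0.48), while the deconjugase Usp18 had 0.43 and Pias2 -0.19.

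Markers of several non-parenchymal cell types lay higher beside those receptor values, and hepatocyte markers lower. Over all tested genes, 50.1% lay above 0 and 49.9% below. T cell markers lay higher in 10 of 10 genes, and their summed level was 23.6 to 50.5 CPM in napabucasin and 13.0 to 18.6 CPM in vehicle libraries. B cell markers lay higher in 7 of 7 genes, with summed levels of 77.9 to 155 CPM in napabucasin and 39.5 to 61.4 CPM in vehicle libraries. NK and cytotoxic markers lay higher in 5 of 6 genes, at 17.5 to 34.4 CPM in napabucasin and 7.52 to 16.7 CPM in vehicle libraries. Kupffer cell markers lay higher in 7 of 7 genes (median log2 fold change 0.68), neutrophil markers in 6 of 6 tested genes (0.52), sinusoidal endothelium markers in 7 of 7 (0.67) and stellate cell and fibroblast markers in 7 of 7 (0.76). Summed levels in these lists overlapped between napabucasin and vehicle libraries. They were 527 to 2038 against 271 to 1444 CPM for Kupffer cells and 18.9 to 73.2 against 13.4 to 46.5 CPM for neutrophils. Sinusoidal endothelium had 185 to 298 against 81.7 to 212 CPM, and stellate cells and fibroblasts 337 to 836 against 273 to 392 CPM. All 8 hepatocyte markers lay lower, and their median was -0.31. No gene of these 8 lists was at 0 in every library. After adjustment by edgeR 0 of them passed, as did 0% of all tested genes. Cholangiocyte markers lay on both sides, 2 higher and 3 lower, with a median of -0.05. The part of these markers in the receptor, STAT and target gene values was not tested.

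The target lists of the same pathways, also chosen with earlier results of these data known, had medians on both sides of 0. Of 25 STAT3 and acute phase targets, an unadjusted p under 0.05 was found for 0 higher and 4 lower, where 9.34% of all genes were higher and 5.83% lower, and the list had a median log2 fold change of -0.36, beside -0.31 for the hepatocyte markers. Hamp, the iron hormone hepcidin, measured 222 ± 109 CPM in napabucasin and 807 ± 488 CPM in vehicle livers (SD, n = 5 each), which is -1.86 on the log2 scale with an SE of 0.45 (edgeR adjusted p = 0.185), and Serpina3m, Saa2 and Saa1 had -0.77, -1.20 and -1.09. The serum amyloid gene Saa1 measured 832, 1757, 2004, 4391 and 1502 CPM in napabucasin replicates 1 to 5, and 1774, 6137, 9537, 2579 and 2369 CPM in vehicle replicates 1 to 5. Vehicle replicates 2 and 3, the 2 highest for Saa1, were also the 2 highest vehicle libraries for Socs3, whereas napabucasin replicate 1, the highest of its group for Socs3, was the lowest for Saa1. Of 10 tested growth hormone and STAT5 genes, 0 higher and 1 lower had such a p, a share near that of all genes, and the median was -0.10. That gene was Onecut1, a hepatic transcription factor, at 1.67 ± 0.54 CPM in napabucasin and 3.76 ± 1.43 CPM in vehicle livers (SD, n = 5 each, edgeR adjusted p = 0.223). Mup20, Elovl3 and Cyp7b1 had log2 fold changes of -0.63, -1.10 and -0.11, and Igf1, the growth hormone effector, had -0.03 (95% interval -0.56 to 0.49). Of 19 tested interferon gamma targets, 8 higher and 0 lower had such a p, against 9.34% and 5.83% of all genes, with a median of 0.43. The GTPase Gbp3 measured 58.5 ± 10.8 CPM in napabucasin and 32.2 ± 0.40 CPM in vehicle livers (SD, n = 5 each, edgeR adjusted p = 0.157), and Gbp6, Gbp7 and Nlrc5 had log2 fold changes of 1.01, 0.47 and 0.76. Socs1 itself had 0.33, with an interval that includes both 0 and the median of that list.

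**Figure D5:**
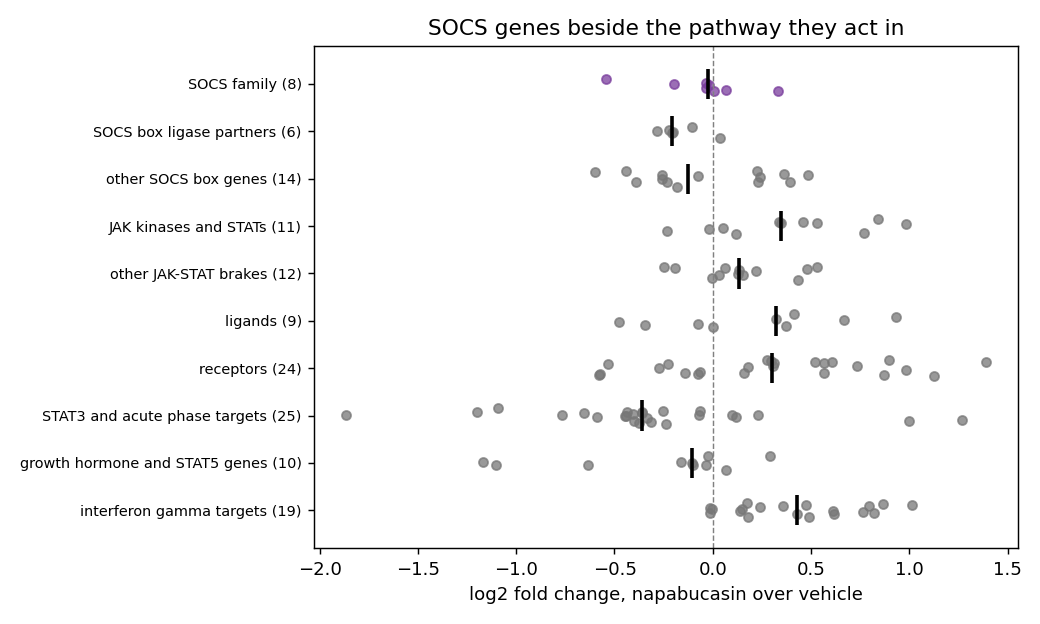
Log2 fold change, napabucasin over vehicle, of each tested gene (point) in the SOCS family (purple) and 9 pathway lists (grey), with the number of tested genes in brackets and the list median as a black bar. The SOCS median sits at -0.03 and that of STAT3 and acute phase targets at -0.36. The medians of receptors, JAK and STAT genes and interferon gamma targets lie at 0.30 to 0.43. No gene shown passed edgeR's adjusted threshold, and neither did any other of the 14244 tested.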

How the data were processed

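The deposited count table holds raw reads per gene. CASAVA, HISAT2 2.0.5, featureCounts 1.5.0-p3 and GRCm38 (mm10) are named per the submitters' processing notes, while annotation release and strand setting are not stated there. The deposited FPKM values were scaled by the authors and were used to compare levels between genes; their formula is not stated. Symbols and coordinates are those of the count table. Cish overlaps the antisense genes Gm17040 and Gm17041, whose reads could not be told apart without strand.

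These counts went into edgeR 4.0.16 under R 4.3.3 (filterByExpr, TMM, robust quasi-likelihood F test, treatment as the only term), with Benjamini-Hochberg adjustment over 14244 genes and a threshold of 0.05. Standard errors and 95% intervals are those implied by the F statistic, CPM uses TMM library sizes, and log2 CPM a prior count of 2. The common biological coefficient of variation was 0.325. Correlations used 100000 resamples, and 20000 under alternatives. The procedure was tested on simulated data. Each p-value is measured against library-to-library spread.

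The members, the lists and their order were chosen with earlier results of these data known. All 8 members are named, with up to 4 genes of smallest p per pathway list and the 3 genes closest to each member. Alb, Igf1, Ghr, Stat5b, Il6, Ifng, Elob and Eloc were added once their values were known. The result for 1 gene that this rule names is not reported here. Alternatives comprised other scalings, filters, DESeq2 1.42.0, limma 3.58.1 (voom, and log2 of FPKM plus 1 or 0.1), a surrogate variable (sva 3.50.0), a replicate block, protein-coding genes only and each library left out. What same-numbered mice have in common is unstated. Their deviations from group means had correlations of 0.154, 0.227, 0.208, 0.270 and 0.278 (replicates 1 to 5), each over 0.1. On that basis alone they were taken as pairs in the replicate block, while the main fit and the permutations ignored the numbers. Of 10 libraries, 6 correlated best with their own number.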

Additional observations from a re-analysis of the deposited data

Results flagged for a closer look

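A library stood far from the rest of its group in 9 of 48 sets of 5 values. For independent sets of normally distributed values, about 1 in 20 would be flagged, or 2.4 here. The levels were not on a log scale and some sets share genes, so 9 cannot be read against 2.4. Each ratio below divides the distance to the closest other library by the whole range, and values above 0.71 are listed.

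Within the SOCS family, vehicle replicate 2 stood apart in Socs3 (148 CPM against 11.5 to 50.8 CPM, ratio 0.711), in Socs5 (13.6 CPM against 6.96 to 8.49 CPM, ratio 0.770) and in the summed FPKM of the 8 genes (65.8 against 16.5 to 27.2, ratio 0.783). Napabucasin replicate 2 stood apart in Socs1, at 2.00 CPM against 0.885 to 1.12 CPM (ratio 0.787).

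Outside the family, vehicle replicate 1 was high in its share of counts in mitochondrial genes (19.0% against 7.03% to 8.78%, ratio 0.854) and in erythroid markers (177 CPM against 13.8 to 46.9 CPM, ratio 0.797). Vehicle replicate 3 was high in B cell markers (61.4 CPM against 39.5 to 44.3 CPM, ratio 0.783). Vehicle replicate 5 was high in muscle markers, at 4.67 CPM against at most 1.14 CPM (ratio 0.756). Napabucasin replicate 5 was low in Kupffer cell markers, at 527 CPM against 1857 to 2038 CPM (ratio 0.880).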

How the results depend on the processing

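The number of SOCS family genes past the threshold was 0 in all 24 alternatives, while over all genes it was 0 in 17 alternatives and otherwise 242 (DESeq2), 132 (limma-voom), 19 (no filter), 1 (library size as the only scaling), 1 (log2(FPKM + 0.1)) and, with 1 library left out, 0 to 18 (18 without vehicle replicate 1, 3 without napabucasin replicate 5). With 1 library left out, the log2 fold changes ran from 0.07 to 0.62 for Socs1, from -0.49 to 0.22 for Socs2, from -0.89 to 0.44 for Socs3, from -0.14 to 0.078 for Socs4, from -0.10 to 0.21 for Socs5, from -0.088 to 0.071 for Socs6, from -0.27 to -0.15 for Socs7 and from -0.17 to 0.25 for Cish. Signs also turned with library size as the only scaling (Socs2 0.028, Socs4 0.022, Socs6 0.040), without a filter (Socs5 -0.024), with limma-voom (Socs3 0.16, Socs5 -0.0095, Socs6 0.0027, Cish -0.0056), on log2(FPKM + 0.1) (Socs5 -0.00022), with 1 surrogate variable (Socs4 0.13, Socs5 -0.20, Cish -0.62) and, in a fit chosen after seeing the data, without the 3 libraries of highest rRNA share (Socs4 0.14, Socs6 0.031, Cish -0.28); the causes were not tested. Socs2 had -0.84 with limma-voom. With the surrogate variable Socs3 had -1.59 (edgeR unadjusted p = 0.0407, adjusted p = 0.705). With the replicate block Socs3 had -0.19, Socs2 -0.22 and Socs1 0.38, and the pairing changed no call. Of the 28 pairs of members, 2 passed with library size as the only scaling, Socs1 with Socs6 (r = 0.87, permutation adjusted p = 0.0336) and Socs4 with Socs6 (r = 0.81, permutation adjusted p = 0.0441). Ranked by CPM in place of FPKM, Socs2 stood at place 3, Cish 4, Socs6 5 and Socs5 6. Socs1 was not tested on FPKM with the 0.5 filter. Counts of 8 to 37 limit what can be said of Socs1.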
